A study of Rattus norvegicus with 14 samples.

Results

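The serotonin receptors of rat motor cortex were described in 9 genes: Htr1a, Htr1b, Htr1d, Htr1f, Htr2a, Htr2c, Htr4, Htr5a and Htr7. They were chosen by gene symbol, as the probe sets whose only symbol in the platform annotation is one of these names. All 9 were found, in 11 probe sets, among 22093 genes with a single symbol. Htr5a and Htr7 each have 2 probe sets, and the brighter one stands for the gene.

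The tissue was motor cortex from male rats that had a spinal cord injury (SCI), measured on 14 Affymetrix whole-transcript arrays. At 24 hours after the injury the rats were infused through the femoral vein with MSC (7 arrays) or vehicle (7 arrays), and the cortex was taken 3 days after the infusion. The submitters do not spell out MSC, which commonly stands for mesenchymal stem or stromal cells, nor do the sources used here say where the cells came from. Both groups carried the injury and had daily cyclosporine A, an immunosuppressant, so by the labels the groups differ in what was infused. The labels do not say that each array came from its own rat, so the p-values reflect only how much these samples vary, and part of that may be technical. One label of MSC replicate 7, its description, speaks of vehicle while all others say MSC, and it was kept as MSC.

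Serotonin reaches the cortex through fibres from the raphe nuclei of the brainstem, so the cell bodies that make it lie outside the sampled tissue while the receptors are made by cortical cells. Receptors of the Htr1 and Htr5 families couple to Gi/o proteins, which lower cyclic AMP and open potassium channels. Those of the Htr2 family couple to Gq and phospholipase C, and Htr4 and Htr7 couple to Gs and raise cyclic AMP. In bulk tissue, fewer cells of a type and less RNA per cell cannot be told apart.

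Values are RMA signals on the log2 scale, so a step of 1 is a doubling. The median over all probe sets lay between 5.77 and 5.9 in each array, which gives a rough mark of dim signal. Any pair of arrays correlated at 0.990 to 0.997 over all tested probe sets. The sampled tissue carried bright signals of the excitatory neuron genes Slc17a7 (mean 15.71) and Camk2a (18.08). Markers known from tissue outside the cortex were high in some arrays, and their values stand beside those of the receptors. Where that signal came from was not tested. Of the spike-in controls, dap read 7.45 to 8.12 in replicates 6 and 7 of either group and 8.35 to 9.92 in replicates 1 to 5, so differences within each of these sets stand beside the receptors. No label names a batch.

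No receptor differed between MSC and vehicle beyond the spread between arrays, and in several receptors that spread was wide. Of the 9 receptors, 0 passed an adjusted p of 0.05 in limma, where 0% of all 68842 probe sets passed. At an unadjusted p below 0.05 there were also 0 receptors, beside 3.41% of all probe sets (1% higher and 2.41% lower in MSC). The lean to lower values depended on scaling: 689 probe sets were higher and 1656 lower as deposited, 1309 and 1290 after repeated quantile normalization, and 1107 and 1242 after median centring. By mean signal 6 receptors stood higher in MSC and 3 in vehicle, with a median difference of 0.078 beside -0.0038 over all genes. The 2 groups overlapped in all 9 receptors. Every receptor had an adjusted p of 0.9999 in limma, which was also the smallest of any probe set. Exact permutation over all 3432 splits of the arrays into 7 and 7, two-sided, also left 0 receptors below 0.05. The share of all genes with overlapping groups, or below 0.05 by exact permutation, was not counted.

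**Figure D1:**
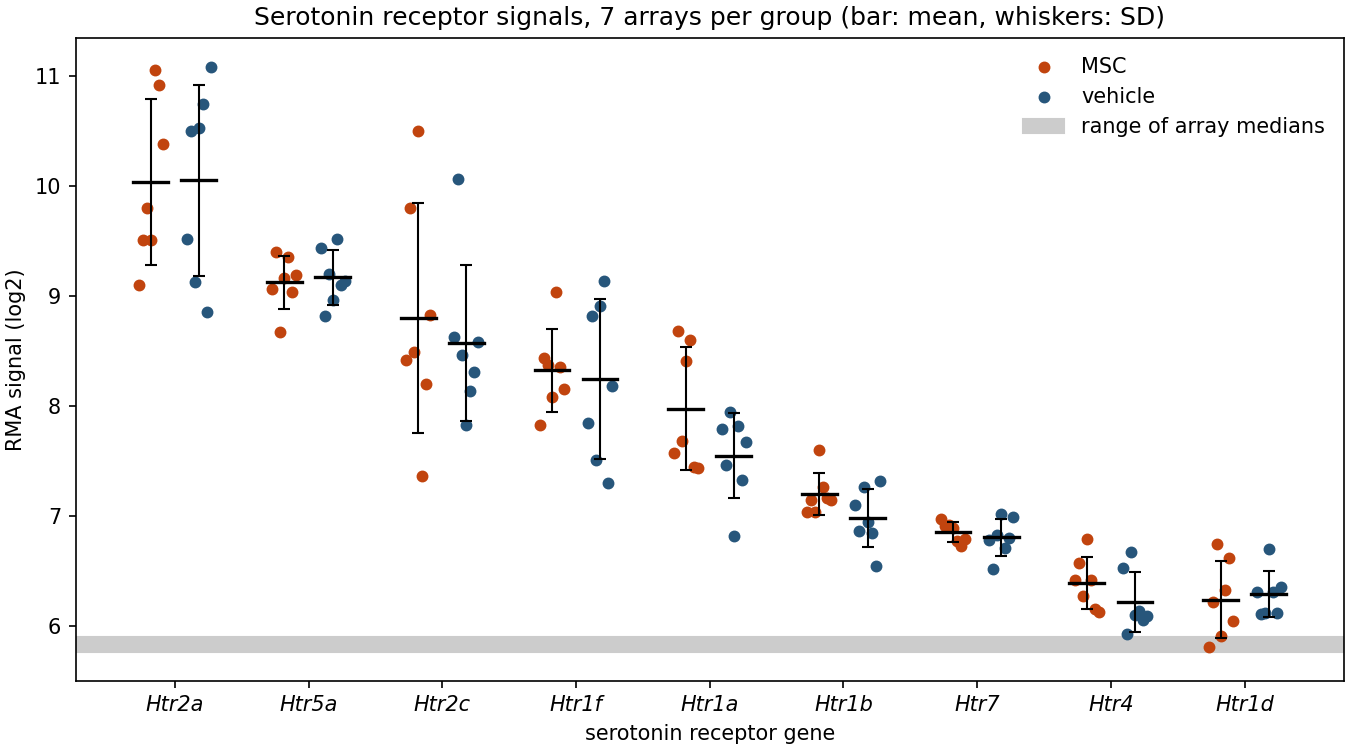
RMA signal (log2) of each receptor on each array, with MSC and vehicle arrays as points, the group mean as a bar and the SD as whiskers; the grey band is the range of the array medians. Htr2a ran from 8.85 to 11.08 and Htr2c from 7.36 to 10.50, while Htr7 stayed between 6.52 and 7.02, and the groups overlap in every receptor.

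Among the receptors of the Htr1 family, Htr1a had the largest difference in means of all 9. Its protein inhibits pyramidal cells and the serotonin neurons themselves. In MSC replicates 1 to 7 Htr1a stood at 7.57, 8.68, 7.68, 8.41, 8.60, 7.45 and 7.44. In vehicle replicates 1 to 7 it stood at 7.79, 7.46, 7.95, 6.82, 7.82, 7.33 and 7.67. MSC replicates 2, 4 and 5 lay above every vehicle array, the other 4 MSC arrays lay within the vehicle range, and vehicle replicate 4 was the lowest of all. The means were 7.97 ± 0.56 and 7.55 ± 0.39 (SD, 7 arrays each), a difference of 0.43 ± 0.23 (SE; limma adjusted p = 0.9999; exact permutation p = 0.121). Its 95% interval ran from -0.062 to 0.92. The difference was 0.62 within replicates 1 to 5 and -0.053 within replicates 6 and 7, where each group has 2 arrays.

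Htr1b encodes a receptor of axon terminals that limits transmitter release. It stood at 7.04, 7.15, 7.04, 7.60, 7.26, 7.16 and 7.15 in MSC replicates 1 to 7. The vehicle values were 7.10, 6.86, 7.26, 6.95, 6.85, 6.55 and 7.32. Every one of the 7 MSC arrays exceeded the vehicle mean of 6.98 ± 0.26 (SD), but vehicle replicate 7 was higher than all MSC arrays except replicate 4. The difference was 0.22 ± 0.11 (SE; interval -0.027 to 0.46; limma adjusted p = 0.9999; exact permutation p = 0.105). It was 0.21 within replicates 1 to 5, 0.22 within replicates 6 and 7, and 0.13 without MSC replicate 4 and vehicle replicate 2.

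Htr1d, a close relative of Htr1b, was the dimmest of the 9 receptors at a mean of 6.27, just above the array medians. It spanned 5.81 to 6.75 in MSC (median 6.22) and 6.11 to 6.70 in vehicle arrays (median 6.31), a difference of -0.046 ± 0.14 (SE; -0.10 within replicates 1 to 5 and 0.095 within 6 and 7). Htr1f, whose protein is also Gi/o-coupled and is the target of a class of migraine drugs, spread further. MSC arrays ran from 7.83 to 9.04 with a median of 8.35. Vehicle arrays ran from 7.30 (replicate 6) to 9.14 (replicate 5) with a median of 8.18, and so reached past the MSC arrays at both ends. The difference was 0.078 ± 0.28 (SE), against a vehicle SD of 0.73. It was -0.096 within replicates 1 to 5 and 0.51 within replicates 6 and 7.

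Htr5a was the steadiest of the bright receptors. Its protein is a Gi/o-coupled receptor of the brain. It lay at 8.67 to 9.40 in MSC and 8.82 to 9.52 in vehicle arrays, a difference of -0.044 ± 0.12 (SE; -0.060 within replicates 1 to 5 and -0.0048 within 6 and 7). The gene's second probe set read 4.17 to 4.43, below the median of every array, with a difference of -0.056 ± 0.054 (SE). The 2 probe sets therefore place the gene at opposite ends of the scale, and the level given for Htr5a rests on the brighter one alone.

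Of the Gq-coupled pair, Htr2a is known in cortex from the pyramidal cells of layer 5, where it depolarises apical dendrites. In MSC replicates 1 to 7 it stood at 9.10, 9.51, 9.80, 9.51, 11.05, 10.92 and 10.38. The vehicle values were 9.52, 10.50, 9.13, 10.53, 10.74, 8.85 and 11.08. Both groups held arrays near 9 and arrays near 11, and the means differed by -0.012 ± 0.39 (SE). Within replicates 1 to 5 the difference was -0.29, and within replicates 6 and 7 it was 0.68. The interval, -0.83 to 0.81, admits a change of up to 1.75-fold up and a fold of 0.56 down. The small mean difference turned positive on leaving out any of 8 arrays singly, and ran from -0.21 without vehicle replicate 6 to 0.16 without vehicle replicate 7.

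Htr2c had the widest range of all 9 over the 14 arrays. The receptor is made by some cortical neurons and in very large amounts by the epithelium of the choroid plexus, the tissue in the ventricles that makes cerebrospinal fluid. It stood at 8.42, 9.80, 8.49, 10.50, 7.36, 8.20 and 8.83 in MSC replicates 1 to 7. The vehicle values were 8.63, 10.06, 8.46, 7.83, 8.14, 8.31 and 8.58. MSC replicates 2 and 4 and vehicle replicate 2 stood above all other arrays, and MSC replicate 5 below them. The group difference was 0.23 ± 0.42 (SE), with an interval of -0.67 to 1.13, the only one of the 9 that reached a 2-fold change. Without MSC replicate 4 the difference was -0.055, and without vehicle replicate 2 it was 0.48. It was 0.29 within replicates 1 to 5 and 0.071 within the other set.

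Choroid plexus markers were high in 2 of those 3 arrays. Ttr, the thyroid hormone carrier made by that epithelium, stood at 16.91 in MSC replicate 4 and 16.81 in vehicle replicate 2, against 6.63 to 10.01 in the other 12. Kl stood at 11.77 and 11.45, against 4.86 to 5.9 in the other 12. The mean of 13 measured markers of the choroid plexus was 8.12 and 8.18 in these arrays and 5.49 to 6.02 elsewhere. Since 2 arrays stand apart, no pooled correlation is given. Over the other 12 arrays Htr2c and the list were not correlated (Pearson r = 0.10, permutation p = 0.72; Spearman rho = 0.15, p = 0.63; adjusted over 72 relations, p = 0.94 and 0.85). Those 12 hold little of the range of the list, so they cannot show whether Htr2c follows choroid plexus signal. The third high array, MSC replicate 2, had a list mean of 5.71, within the range of the other arrays. With MSC replicate 4 and vehicle replicate 2 left out together the group difference of Htr2c was 0.19.

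**Figure D2:**
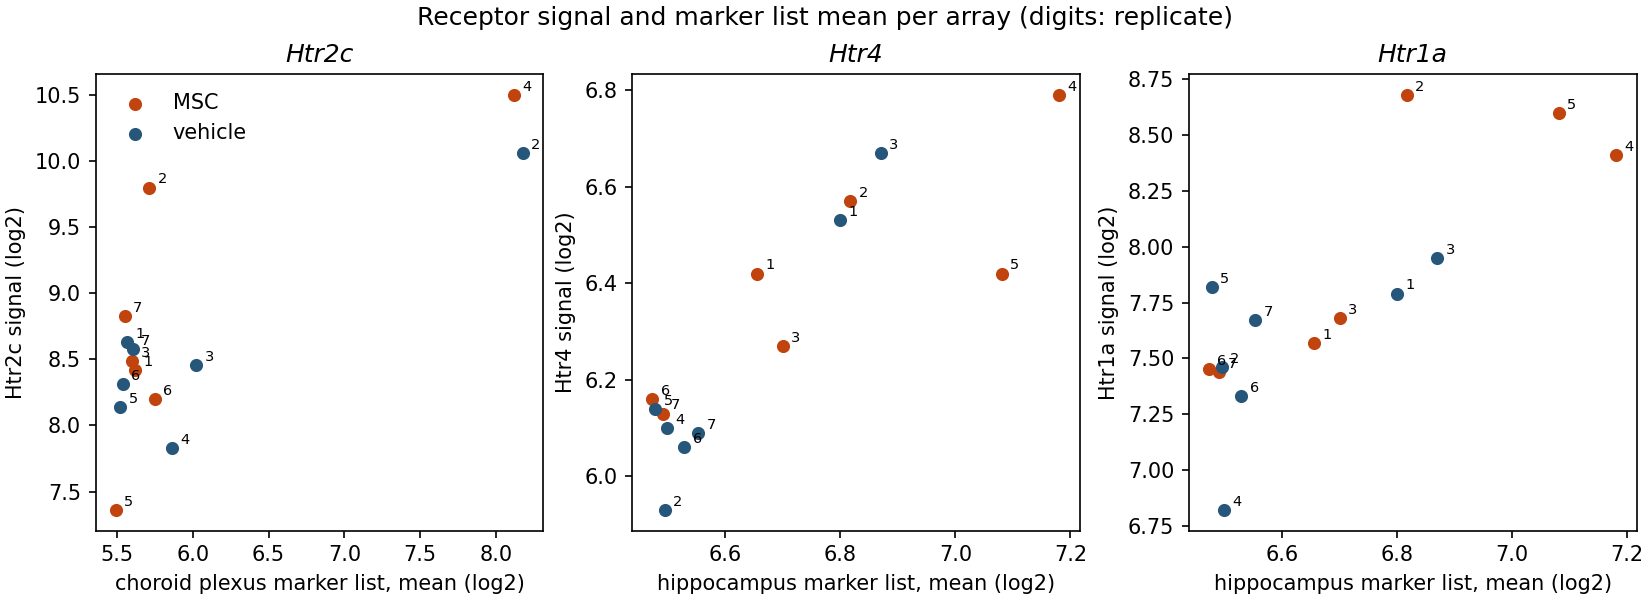
Receptor signal (log2) against the mean log2 signal of a marker list, 1 point per array, with digits for the replicate number. Left, Htr2c against choroid plexus markers, where MSC replicate 4 and vehicle replicate 2 stand apart at 8.12 and 8.18; middle and right, Htr4 and Htr1a against hippocampal markers (r = 0.87 and 0.80 over 14 arrays).

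Of the Gs-coupled receptors, Htr4 is known from hippocampus and striatum as well as cortex. In MSC replicates 1 to 7 it stood at 6.42, 6.57, 6.27, 6.79, 6.42, 6.16 and 6.13. The vehicle values were 6.53, 5.93, 6.67, 6.10, 6.14, 6.06 and 6.09. In the vehicle group, replicates 1 and 3 stood apart from the other 5. The difference was 0.18 ± 0.13 (SE; interval -0.088 to 0.45; limma adjusted p = 0.9999; exact permutation p = 0.21), and 0.065 without MSC replicate 4 and vehicle replicate 2. Within replicates 1 to 5 it was 0.22 and within replicates 6 and 7 it was 0.070. Htr7, a receptor tied to circadian timing and thalamic signalling, was the least variable, with an SD of 0.13 over 14 arrays. It differed by 0.049 ± 0.073 (SE) in the brighter probe set, whose identifier is marked as unmapped, with 0.12 within replicates 1 to 5 and -0.13 within 6 and 7. The other Htr7 probe set differed by -0.073 ± 0.066 (SE), so its means lay in the opposite order. The 2 had means of 6.83 and 6.81.

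**Figure D3:**
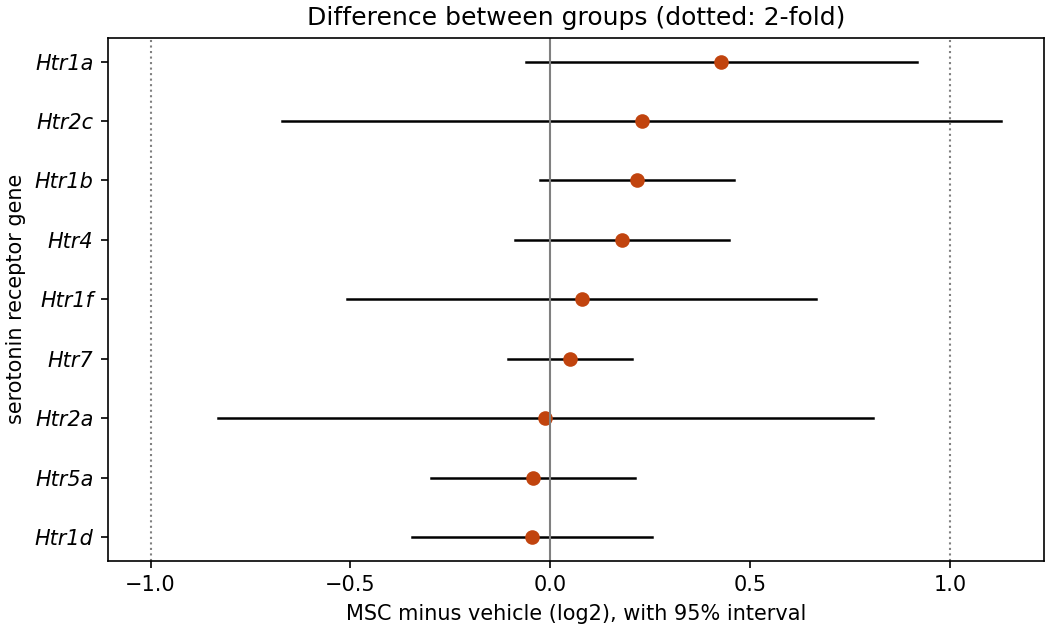
Difference in mean log2 signal, MSC minus vehicle, for each receptor (point) with its 95% interval from limma (line); dotted lines mark a 2-fold change. All 9 intervals include 0, and that of Htr2c, from -0.67 to 1.13, alone crosses a dotted line.

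The intervals bound what the 14 arrays could show. For 8 of the 9 receptors a 2-fold change lay outside the interval on both sides, and for 5 a 1.5-fold change did, namely Htr1b, Htr1d, Htr4, Htr5a and Htr7. RMA shrinks differences of dim probe sets, so the intervals of Htr1d and Htr4, near the array medians, may be narrower than those of the transcripts.

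The spread over all 14 arrays set 4 receptors apart from most genes. The SD was 0.87 for Htr2c, 0.78 for Htr2a, 0.56 for Htr1f and 0.51 for Htr1a. Each of these lay above the 99th percentile of 22093 genes, whose median SD was 0.13. The percentiles were 99.8 for both Htr2c and Htr2a, 99.4 for Htr1f and 99.3 for Htr1a. Htr1d (92.8), Htr4 (91.1), Htr1b (89.4) and Htr5a (87.5) followed, and Htr7 was at 49.8. Without MSC replicate 4 and vehicle replicate 2, the arrays with choroid plexus signal, the SD of Htr2c was 0.58, below that of Htr2a (0.82) and close to that of Htr1f (0.58), and all 4 receptors were still above the 99th percentile. This ranking runs over probe sets of all signal levels, and dim ones vary less.

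Probe sets differ in how strongly they respond, so an order of receptors is an order of signals and not of transcript amounts. By mean signal it ran Htr2a (10.04), Htr5a (9.15), Htr2c (8.69), Htr1f (8.28), Htr1a (7.76), Htr1b (7.09), Htr7 (6.83), Htr4 (6.30) and Htr1d (6.27). Htr2a was the brightest of the 9 in 10 arrays, and Htr2c and Htr5a in 2 each. Neighbours in the upper part exchanged places between arrays. Htr5a exceeded Htr2c in 11 of 14 arrays (mean difference 0.46 ± 0.92, SD), Htr2c exceeded Htr1f in 10 (0.40 ± 1.09), and Htr1f exceeded Htr1a in 10 (0.52 ± 0.73), each by less than its spread. Htr4 and Htr1d could not be ordered, at 7 of 14 arrays and 0.038 ± 0.44. The steps that exceeded their spread were Htr2a over Htr5a (0.90 ± 0.81, 12 arrays), Htr1a over Htr1b (0.67 ± 0.43, 13 arrays), Htr1b over Htr7 (0.26 ± 0.24, 12 arrays) and Htr7 over Htr4 (0.53 ± 0.26, 14 arrays). The place of Htr5a holds for its brighter probe set only.

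**Figure D4:**
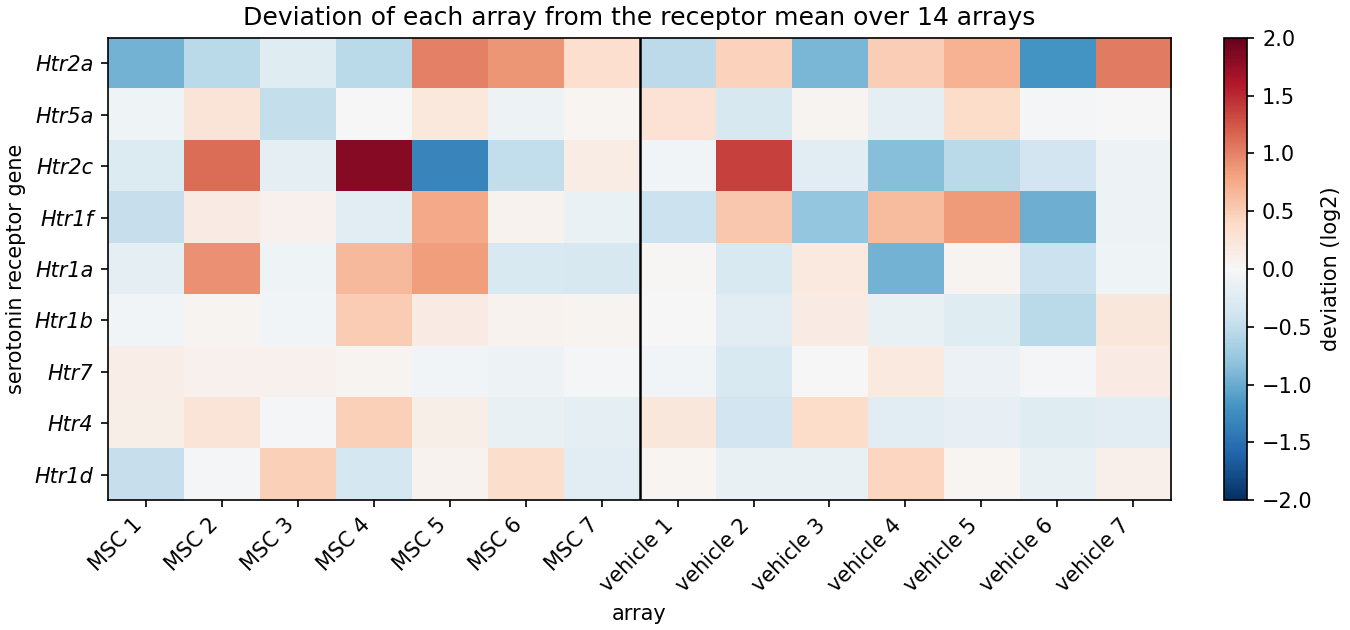
Deviation of each array from the receptor's mean over 14 arrays (log2; red higher, blue lower), with receptors ordered by mean signal and a line between MSC and vehicle arrays. Htr2a and Htr1f share most of their high and low arrays, and the high arrays of Htr2c are MSC replicates 2 and 4 and vehicle replicate 2.

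Receptors varied together in pairs, but no pair held over the family of 36. The closest was Htr1f with Htr2a (r = 0.77, permutation p = 0.0019; rho = 0.73, p = 0.0042; adjusted p = 0.068 and 0.076). Both were high in MSC replicate 5 and vehicle replicates 2, 4 and 5, and low in MSC replicate 1 and vehicle replicates 1, 3 and 6. They parted in MSC replicates 6 and 7 and vehicle replicate 7. There Htr2a was high (10.92, 10.38 and 11.08) and Htr1f (8.35, 8.15 and 8.18) lay near its mean of 8.28. The value of r was 0.68 without the 2 arrays of most extreme Htr1f and 0.94 within replicates 1 to 5, where the pair passed (adjusted p = 0.0061). Next came Htr1a with Htr4 (r = 0.71, permutation p = 0.0041; rho = 0.77, p = 0.0019; adjusted p = 0.074 and 0.068) and Htr1b with Htr4 (r = 0.67, permutation p = 0.0076; rho = 0.59, p = 0.029; adjusted p = 0.091 and 0.21). The latter pair also passed within replicates 1 to 5 (permutation, adjusted p = 0.0076). Without the 2 most extreme arrays these were 0.75 and 0.48, and within replicates 1 to 5 they were 0.66 and 0.88. Scaling moved the calls: by r, 2 pairs passed after repeated quantile normalization and 3 after median centring, and by rho 1 passed after each. Without vehicle replicate 7, 2 passed by r, Htr1f with Htr2a and Htr1b with Htr4, and 3 by rho. Without MSC replicate 6, 0 passed by r and 2 by rho.

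The mean of the hippocampal marker list moved with Htr4 and Htr1a, though not every member did. Over 14 arrays the mean of 8 hippocampal markers correlated with Htr4 at r = 0.87 (permutation p = 4e-05, adjusted over 72 relations p = 0.0029) and with Htr1a at r = 0.80 (permutation p = 0.00063, adjusted p = 0.023). Spearman's rho was 0.75 (permutation p = 0.0025) and 0.72 (permutation p = 0.0044), and neither passed on the deposited values (adjusted p = 0.16 for both). After repeated quantile normalization, and after median centring, 2 marker relations passed by rho. The values of r were 0.93 and 0.68 without MSC replicates 4 and 5, the most extreme arrays of the list. Within replicates 1 to 5 they were 0.84 (adjusted p = 0.084) and 0.77 (0.13), and without MSC replicate 4 and vehicle replicate 2 they were 0.81 and 0.78 (0.067 for both), so the calls ended there. Without MSC replicate 5 that of Htr1a also ended (r = 0.74, adjusted p = 0.14). For Htr1b, r was 0.67 over all arrays (rho = 0.55, permutation p = 0.0073 and 0.044, adjusted p = 0.13 and 0.67) and 0.95 within replicates 1 to 5 (adjusted p = 0.00072). It was 0.42 without MSC replicates 4 and 5, 0.49 without MSC replicate 4 (adjusted p = 0.55) and 0.46 without MSC replicate 4 and vehicle replicate 2 (adjusted p = 0.75).

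The hippocampal list ran from 6.47 to 7.18 in MSC and 6.48 to 6.87 in vehicle arrays. Of its 8 members, 5 had higher and 3 lower means in MSC, 0 passed in limma (1 at an unadjusted p below 0.05, Cabp7), and the median difference was 0.018. Only 4 of the 8 had a mean above the array medians. The 3 brightest were Nectin3, an adhesion molecule, at -0.13 ± 0.11 (SE), Cabp7, a calcium-binding protein, at 1.14 ± 0.46, and C1ql2, a secreted C1q-like protein, at 0.16 ± 0.23. The part of this signal in the higher MSC means of Htr1a, Htr1b and Htr4 was not tested.

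The remaining relations did not pass over all arrays. Of the 72 between 9 receptors and 8 marker lists, the 2 above passed by Pearson's r and 0 by Spearman's rho. Htr1f and markers of the upper cortical layers reached r = 0.57 (rho = 0.62, permutation p = 0.030 and 0.020, adjusted p = 0.35 and 0.47), 0.58 without the 2 most extreme arrays and 0.61 within replicates 1 to 5. Htr5a and the deep layers reached 0.56 (rho = 0.49, permutation p = 0.035 and 0.078, adjusted p = 0.35 and 0.67), then 0.49 and 0.76. Htr2c and thalamic markers reached 0.55 (rho = 0.36, permutation p = 0.039 and 0.21, adjusted p = 0.35 and 0.71), which fell to 0.020 without MSC replicate 2 and vehicle replicate 2 and was 0.56 within replicates 1 to 5. Htr4 and immediate early genes reached -0.56 (rho = -0.38, permutation p = 0.038 and 0.17, adjusted p = 0.35 and 0.70), then -0.25 and -0.46, and passed without vehicle replicate 3 (r = -0.80, adjusted p = 0.038).

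The genes with the most alike pattern were sought among 13891 genes with a mean above the array medians, by Pearson r over 14 arrays after subtracting each group's mean. These values are descriptions, and all genes share the same 14 arrays. Htr1a was most like Cnih2, an auxiliary protein of AMPA receptors (r = 0.95), followed by Mblac2 (0.91) and Sufu (0.90). Htr4 was most like the neuropeptide gene Nts (0.92), the receptor gene Gpr161 (0.92) and C1ql2 (0.91), which is also in the hippocampal list. Nts itself ran from 6.31 in vehicle replicate 2 to 9.05 in vehicle replicate 3.

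For Htr2a the closest were Rxfp1, the relaxin receptor (0.94), Acvr1c, an activin receptor (0.92), and Medag (0.90). Rxfp1 was at 10.03 in vehicle replicate 7 and 8.07 in vehicle replicate 6, which were also the extremes of Htr2a. Htr1f was closest to the annexin Anxa6 (0.93), Tmem47 (0.87) and Rsu1 (0.86). Htr2c was closest to Ecm2 (0.91), an extracellular matrix protein, Phactr2 (0.89) and Chek1 (0.87), and Ecm2 was at 7.13 and 7.04 in the 2 arrays with choroid plexus signal against at most 6.69 elsewhere.

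Htr1b was closest to Mctp1 (0.88), Tesc (0.87) and Epha7, an ephrin receptor (0.86). Htr1d came closest to Lpar5, a receptor for lysophosphatidic acid (0.88), Slc25a5l1 (0.87) and Slc15a3 (0.86). Htr5a was closest to Papss1, Xab2 and Rbbp9 (0.90 each). Htr7, the receptor that varied least, was closest to Dcaf13 (0.89), Tspan13 (0.81) and Hspd1-ps4 (0.80).

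The other serotonin receptors of the genome also showed no difference past the threshold, with 0 of 5 genes called. Htr2b (mean 4.82) and Htr3b (4.83) lay below the array medians, and Htr3a (6.15), the ion channel receptor of some interneurons, and Htr6 (6.20) lay just above. Htr5b, the second gene of the Htr5 family, had the widest gap between its arrays. In MSC replicates 1 to 7 it was at 5.57, 6.72, 6.69, 6.81, 6.48, 4.82 and 4.99. The vehicle values were 6.14, 4.75, 6.47, 4.53, 4.65, 4.77 and 5.14. Arrays of both groups lay below 5.2 and above 6, with a majority of MSC arrays high and a majority of vehicle arrays low. Those above 6, MSC replicates 2 to 5 and vehicle replicates 1 and 3, had hippocampal list means of 6.70 to 7.18. In the others the list stood at 6.47 to 6.655. This relation was seen after the fact and was not tested. The difference was 0.80 ± 0.39 (SE; limma adjusted p = 0.9999; exact permutation p = 0.094).

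Genes that make, move and break down serotonin were measured for 19 of 19 listed, and 0 passed in either direction, with 13 means higher and 6 lower in MSC and a median of 0.042. The neuronal synthesis enzyme Tph2 (mean 5.21) and the serotonin transporter Slc6a4 (5.53), both made in the raphe nuclei, lay below the median of every array. The monoamine oxidases Maoa (11.12 in MSC and 11.03 in vehicle arrays) and Maob (10.12 and 10.16) were bright and close between groups. Of the rest, the smallest unadjusted p belonged to Qdpr, which recycles the cofactor of the synthesis enzymes (-0.23 ± 0.11, SE), Ddc, the decarboxylase (0.12 ± 0.070), and Slc18a2, the vesicular transporter (0.064 ± 0.044). Tph1, singled out after its values were seen, stood at 11.99 in MSC replicate 2 and at 4.54 to 4.92 in all 13 other arrays. It is the synthesis enzyme of the pineal gland and gut.

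Downstream of the receptors, 0 genes of the 4 lists passed. In the Gi/o list 5 of 12 means were higher and 7 lower in MSC (median -0.060), with the G protein regulators Rgs10 at -0.24 ± 0.10 (SE) and Rgs8 at 0.27 ± 0.13. In the Gq list 4 of 11 were higher and 7 lower (median -0.0076), with the G protein subunit Gna14 at 0.26 ± 0.13 and the kinase Prkca at 0.28 ± 0.15. The Gs list had 7 of 14 in each direction (median 0.0071), with the adenylyl cyclase Adcy3 at 0.12 ± 0.062 and the kinase subunit Prkar1b at -0.10 ± 0.075. Among 6 binding partners, 4 were higher and 2 lower (median 0.034), with the arrestin Arrb2 at 0.14 ± 0.071 and S100a10, a partner of Htr1b and Htr4, at -0.18 ± 0.22. The pairs named here had the smallest unadjusted p of each list. At an unadjusted p below 0.05 in limma, 1 gene of the 4 lists was counted, Rgs10, and 0 of the further receptors and of the synthesis, transport and breakdown genes. By exact permutation, Slc18a2 had p = 0.048 and Rgs10 p = 0.055, before any adjustment.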

How the data were processed

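The values the authors deposited are on the log2 scale. The submitters' processing notes name RMA and Affymetrix Expression Console, and the sources used here give no version, setting or genome build. Of 70580 probe sets, 1738 controls were left out and 68842 tested. Symbols came from the platform annotation, updated through RefSeq gene identifiers (GRCr8), which changed 1.

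MSC and vehicle arrays were set against each other in limma 3.58.1 (R 4.3.3; no covariate, Benjamini-Hochberg over all tested probe sets, adjusted p below 0.05), tested on simulated data. Single receptors also had an exact permutation test. Relations used Pearson's r and Spearman's rho with 100000 permutations, two-sided. Of 204 list entries, 194 were measured. The number of arrays limits the precision, and a gene's 95% interval reached 0.15 to either side in the median.

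Named were all receptors, fixed genes of each list, members with the smallest p or highest mean, and the 3 genes most alike to each receptor. Members and lists were chosen with earlier results of these data known. Alternatives covered scaling, filters, labels, blocks and left-out arrays.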

Additional observations from a re-analysis of the deposited data

Results flagged for a closer look

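In 106 groups of 7 arrays (receptors, named pathway genes and list means, each in MSC and in vehicle), the highest or lowest array stood far from the rest in 18, where chance flags about 1 in 20 groups. The quantities overlap, since list means hold some of the named genes.

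Among receptors, Htr2c was high in vehicle replicate 2 (10.06, next 8.63) and Htr1b in MSC replicate 4 (7.60, next 7.26). Htr1d was high in vehicle replicate 4 (6.70, next 6.36). The dim second probe set of Htr5a was high in MSC replicate 3 (4.37, next 4.25) and Htr2b in MSC replicate 1 (5.04, next 4.81), both below the array medians. Htr3a was low in vehicle replicate 7 (5.95, next 6.09).

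MSC replicate 2 stood apart in Tph1 (11.99, next 4.92 in its group), in the mean of the serotonin synthesis, transport and breakdown list (7.37, next 6.90), and in the means of astrocyte markers (11.28, next 10.96) and meningeal markers (8.80, next 7.92). Without that array the median difference of the serotonin list was 0.019 in place of 0.042. Vehicle replicate 2 stood apart in the choroid plexus list (8.18, next 6.02), the thalamus list (7.15, next 6.94) and the meningeal list (8.70, next 7.70). MSC replicate 4 stood apart in the choroid plexus list (8.12, next 5.75) and MSC replicate 6 in the striatal list (8.47, next 7.77).

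Among pathway genes, Qdpr was high in vehicle replicate 4 (11.15, next 10.73), and MSC replicate 5 was high in Prkca (13.87, next 13.19) and in the Gq list mean (11.37, next 11.11).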

How the results depend on the processing

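The count of 0 receptors past the threshold held under every alternative run. That of 0 pathway genes held where it was made. It was not made with the batch term, with negative controls kept, or within replicates 1 to 5 or 6 and 7. Over all probe sets 0 passed in each alternative, except 1 within replicates 6 and 7. All 8 neighbouring pairs kept their order of mean signal under both scalings. No label pairs same-numbered arrays. The deviations of same-numbered arrays correlated at -0.31 to 0.27, although spike-ins set replicates 6 and 7 of both groups apart. The replicate block gave 0 receptors and 0 pathway genes past the threshold too. In this balanced design it cannot change a difference in means, so Htr1a stayed at 0.43. With the second probe set of Htr5a, 7 of the 8 pairs kept their order, but Htr5a itself, at a mean of 4.27, fell below all others (Htr1d 6.27). Of 227 receptor differences under alternatives, 198 kept their sign and 29 did not. The 198 include those under the replicate block, the batch term, the dim-row and control filters and the exact test. These leave a difference in means as it was, so the signs there were fixed in advance. After repeated quantile normalization and median centring Htr2a stood at 0.0069 and 0.0036. With MSC replicate 7 counted as vehicle Htr1d stood at 0.017, and the second Htr7 probe set gave -0.073. Within replicates 1 to 5 Htr1f stood at -0.096. Within replicates 6 and 7 Htr1a stood at -0.053, Htr1d at 0.095, Htr2a at 0.68 and Htr7 at -0.13. Without MSC replicate 4 and vehicle replicate 2, chosen after seeing the data, Htr2a stood at 0.15 and Htr7 at -0.0042, while Htr5a kept its sign at -0.108. With 1 array left out, differences ran from -0.13 to 0.026 for Htr1d, -0.079 to 0.23 for Htr1f, -0.21 to 0.16 for Htr2a, -0.055 to 0.48 for Htr2c and -0.10 to 0.031 for Htr5a, while Htr1a (0.31 to 0.52), Htr1b (0.14 to 0.27), Htr4 (0.11 to 0.25) and Htr7 (0.0018 to 0.0845) kept their sign. By Pearson's r, receptor pairs past the threshold numbered 0 with all arrays, 2 after quantile normalization, 3 after median centring, 2 within replicates 1 to 5, and 0 to 2 with 1 array left out (by rho, 3 without vehicle replicate 7). Relations with marker lists past it by r numbered 2, then 1 within replicates 1 to 5, 0 without MSC replicate 4 and vehicle replicate 2, and 1 to 3 with 1 array left out. The 1 within replicates 1 to 5 was Htr1b with the hippocampal list, which is neither of the 2. The cause of these changes was not tested. Limits: 7 arrays per group, dim signals near the array medians for Htr1d and Htr4, and hippocampal markers of which 4 of 8 are dim.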

Other observations

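MSC replicate 2, in which Tph1 and Htr2c were both high, also stood above every other array in further genes. Taking the 8 genes with the widest gap between that array and the highest of the other 13, Tph1 came first, and 4 of the others belong to the light response of photoreceptors. Pde6g, a subunit of the photoreceptor phosphodiesterase, stood at 7.98 against 4.37 to 4.73. Gnat2, the transducin of cones, stood at 8.29 against 5.83 to 6.38, Guca1b, an activator of guanylyl cyclase, at 6.94 against 5.44 to 5.75, and Pde6c at 6.34 against 4.89 to 5.19. Impg2, a protein of the matrix around photoreceptors, stood at 6.54 against 5.15 to 5.35. Nnat (10.06 against 7.45 to 8.13) and Cbln4 (10.44 against 7.05 to 9.09) completed the 8. Of the melatonin enzymes, Aanat stood at 5.75 in that array against 5.80 to 6.15 in the others, and Asmt at 6.11 against 5.87 to 6.06. Both enzymes lay close to the array medians throughout, so these dim values say little about either gene. Otx2, a member of the choroid plexus list, stood at 6.10 in MSC replicate 2. It was at 6.67 in both MSC replicate 4 and vehicle replicate 2, and at 5.10 to 5.62 in the rest. These genes were chosen after the values were seen and no test was made.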
